A study of Homo sapiens with 15 samples.

Results

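The BCL2 family decides whether the outer mitochondrial membrane stays intact, and 10 of its genes were followed here in MCF-10A cells, in total RNA and in the footprints of ribosomes. The genes are MCL1, BCL2L1, BAX, BAK1, BCL2L11, BBC3, PMAIP1, BAD, BID and BCL2L13. They were chosen by name, but with earlier results of these data known. All 10 were found by symbol in both tables, among 56475 symbols in the total RNA table and 20248 in the footprint table.

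MCF-10A is an established, non-tumorigenic line of human mammary epithelial cells. Cells received 20 nM siRNA for 72 h, either a control siRNA or one against eIF3e, a subunit of the initiation complex eIF3, which brings the small ribosomal subunit to mRNAs. Each siRNA has 3 total RNA libraries and 3 libraries of ribosome footprints of 26 to 34 nt, which makes 12 of the 15 libraries. The other 3 are single footprint libraries from MCF-10A cells for which no siRNA is named: all 80S ribosomes of a total lysate, ribosomes bound by eIF3B and ribosomes bound by eIF3E. The design asks which mRNAs, and which mRNAs' ribosomes, change when eIF3e is depleted, and all groups come from this 1 cell line. Whether replicates came from separate cultures is not stated, and p-values therefore describe the spread among these libraries, which may be technical.

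The proteins of this family bind one another. Anti-apoptotic members such as MCL1 and BCL-XL hold the effectors BAX and BAK1 in check. BH3-only members respond to stress by occupying the anti-apoptotic members or by activating the effectors, which then open the outer membrane and release cytochrome c to start the caspases. Because the balance is set by opposing members, the levels of both sides matter, and MCL1 and NOXA, the product of PMAIP1, are known as short-lived proteins that depend on continued synthesis.

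Read totals ranged from 4263767 to 5646270 in total RNA, from 1889543 to 3447360 in siRNA footprints and from 1224606 to 1630872 in the single libraries. Levels are given as CPM, counts relative to a library size scaled by TMM factors. They can be compared between libraries but not between genes, since they are not per length. The limit set by 3 counts is given as CPM of the unscaled library total, without TMM factors, and covers counting error only. It was 0.531 to 0.704 CPM for total RNA, 0.870 to 1.59 CPM for siRNA footprints and 1.84 to 2.45 CPM for the single libraries. EIF3E, the target, fell to 11.3% of control in total RNA (log2 change -3.15 ± 0.12, SE, n = 3 per group, edgeR adjusted p = 1.6e-10) and also fell in footprints (log2 change -2.88 ± 0.16, edgeR adjusted p = 5.3e-14). All 10 markers of basal mammary epithelium had counts in both assays, with summed levels of 14048 to 15690 CPM in control and 14293 to 15139 CPM in eIF3e siRNA total RNA. Single markers moved. Of the 10, 2 rose and 3 fell in total RNA, where 18.8% of all genes tested rose and 18.7% fell. In footprints 3 rose and 6 fell, where 10% of all genes tested rose and 8.46% fell, so most of these markers changed there. The keratin KRT14 was at 49.9% of control in total RNA and 50.9% in footprints, and the laminin chain LAMB3 at 125% and 133%. Of 6 fibroblast markers COL1A2 was at 0 and the sum was 6.39 to 7.68 CPM in control and 7.98 to 10.3 CPM after eIF3e siRNA. Of 5 endothelial markers none was at 0 in every library, and the sum was 1.83 to 2.64 CPM in control and 1.01 to 1.75 CPM after eIF3e siRNA. Of 5 blood markers those at 0 included CD3E, and the sum was 1.76 to 39.8 CPM in control and 2.44 to 5.24 CPM after eIF3e siRNA. The wide control range was mostly that of HBB, at 12.9 ± 21.3 CPM in control and 1.14 ± 0.17 CPM after eIF3e siRNA (mean and SD, n = 3). In footprints the corresponding sums were 30496 to 33771 and 29861 to 30863 CPM for basal epithelium, 7.33 to 18.2 and 19.9 to 20.4 CPM for fibroblasts (COL1A2, PDGFRA and LUM at 0) and 0.985 to 5.90 and 0 to 3.86 CPM for endothelium (PECAM1, VWF and TEK at 0). For blood they were 115 to 173 and 235 to 314 CPM, with CD3E among the markers at 0. Most of the signal lay on CD68, a lysosomal protein. Its footprints averaged 151 CPM in control and 262 CPM after eIF3e siRNA, a called rise (log2 change 0.79 ± 0.15, edgeR adjusted p = 0.00034). In total RNA CD68 averaged only 2.06 and 2.42 CPM, and why the assays differ was not tested. The part of these markers in the results was not tested.

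Regulatory sequence upstream of 3 members is shown because BAX, BBC3 and PMAIP1 are all known as targets of the transcription factor p53, and their mRNAs moved in different directions here. No p53 element was searched for, and the marked motifs are others. The sequences are the 250 bases before a RefSeq start site (GRCh38.p14), 5′ to 3′ on the gene's strand. For BAX and PMAIP1 this is the outer end of the locus given below, while the BBC3 window belongs to a start site at 47232667, inside its locus, and 193 of its bases lie within that locus. Capitals mark the E-box CACGTG in BAX and BBC3, known to be bound by basic helix-loop-helix factors, and the core TGACG of a cyclic AMP response element, on either strand, in PMAIP1.
BAX, chr19:48954625-48954874, plus strand: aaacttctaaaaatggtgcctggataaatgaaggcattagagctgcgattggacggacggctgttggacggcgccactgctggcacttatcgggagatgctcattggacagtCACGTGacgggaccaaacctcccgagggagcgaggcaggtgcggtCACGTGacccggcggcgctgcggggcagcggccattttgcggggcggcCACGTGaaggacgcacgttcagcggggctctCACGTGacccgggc
BBC3, chr19:47232668-47232917, minus strand: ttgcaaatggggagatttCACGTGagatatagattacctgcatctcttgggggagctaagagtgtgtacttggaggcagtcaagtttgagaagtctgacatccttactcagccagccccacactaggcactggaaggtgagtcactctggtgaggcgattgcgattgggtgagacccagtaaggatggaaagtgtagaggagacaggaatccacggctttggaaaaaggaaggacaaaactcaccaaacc
PMAIP1, chr18:59899746-59899995, plus strand: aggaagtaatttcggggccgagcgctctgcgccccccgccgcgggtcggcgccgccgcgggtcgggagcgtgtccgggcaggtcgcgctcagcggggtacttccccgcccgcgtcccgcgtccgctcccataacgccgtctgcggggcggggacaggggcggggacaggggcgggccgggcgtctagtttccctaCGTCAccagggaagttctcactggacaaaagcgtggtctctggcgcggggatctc
The BAX window held 4 E-boxes, whose first bases lie at -138, -93, -45 and -14 from the start site, and the BBC3 window held 1, at -232. Of 35116 such windows in the table, 6.34% held an E-box and 5 windows, or 0.0142%, held 4 or more. The PMAIP1 window held the TGACG core once, at -55, as 21.2% of windows did, and 4 copies of the GC box GGGCGG, at -146, -106, -94 and -82, which 7.63% of windows matched with 4 or more copies. The BAX window also held TGACG once, at -134, where it overlaps the E-box at -138. The motif marked was chosen gene by gene among 4 that were searched in the windows of all members. BID windows 2 and 5, not shown, also held an E-box, at -106 and -47. These are matches of letters, not measured binding sites. RefSeq windows were found for 9 of the 10 members.

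Of the 10 members, MCL1, PMAIP1, BCL2L11 and BBC3 fell in total RNA after eIF3e siRNA, and BAX rose. BAX mRNA stood at 201% of control, while the other 4 stood at 58.6% to 69.4%. BCL2L1, BAK1, BAD, BID and BCL2L13 did not pass the test. All 10 members were tested, and 1 rose and 4 fell. Over all genes tested, 37.5% were called, made up of 18.8% higher and 18.7% lower (edgeR quasi-likelihood test, Benjamini-Hochberg adjusted p under 0.05). The median change of the members in total RNA was -0.34 (log2), and that of all 11719 genes tested was 0.02. With scaling by library totals these medians were -0.18 and 0.18. For the 7 members tested in footprints the median was -0.05, beside -0.01 for all genes. In footprints per mRNA it was -0.06, beside 0.01. In bulk samples, fewer cells with an mRNA and less of it per cell cannot be told apart.

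**Figure D1:**
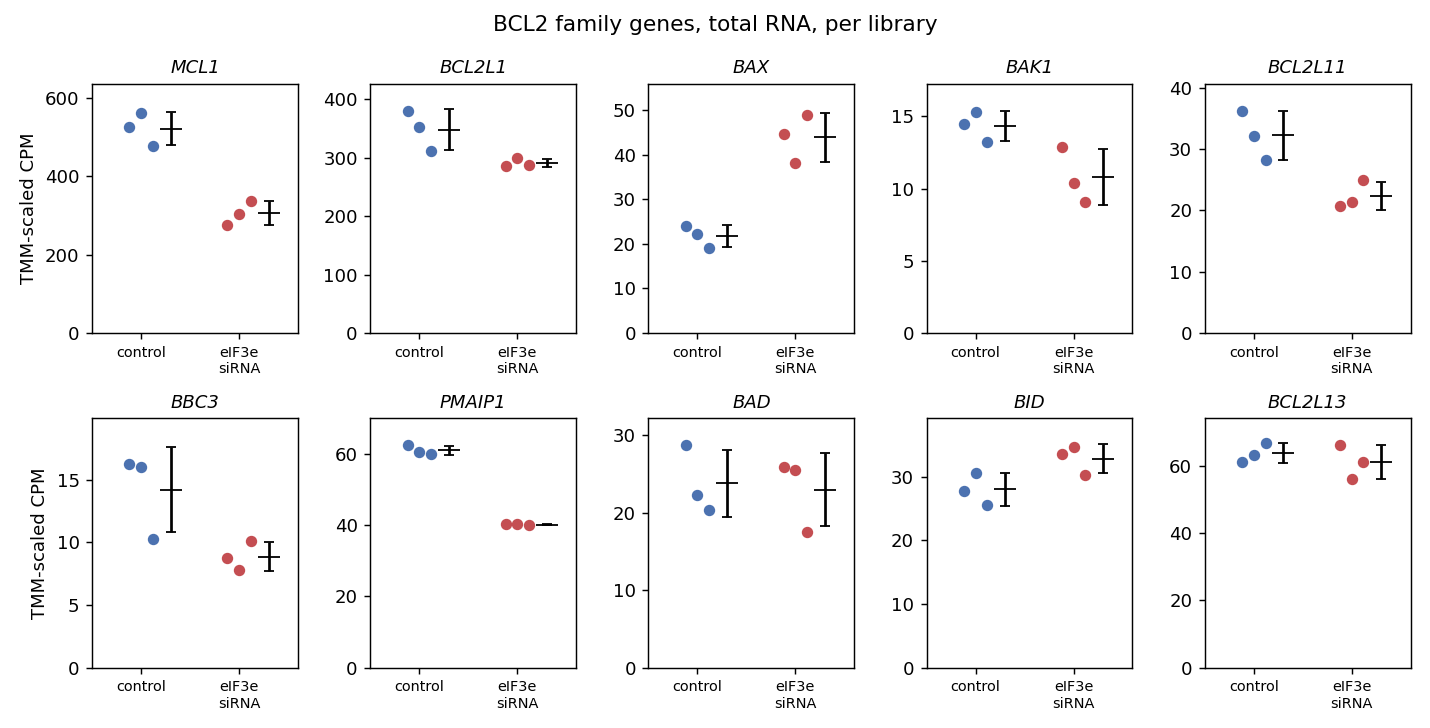
Level of each member in the 6 total RNA libraries, in TMM-scaled CPM on axes that start at 0; points are libraries 1 to 3 from left to right, and the bar is the mean with its SD (n = 3). BAX stands higher in every eIF3e siRNA library than in any control library, and MCL1, BCL2L1, BAK1, BCL2L11, BBC3 and PMAIP1 stand lower.

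Among the anti-apoptotic members, MCL1 (chromosome 1, 150574558 to 150579610, GRCh38.p14, as for all loci here) showed the clearer fall. Its mRNA was at 525, 563 and 478 CPM with control siRNA, against 275, 305 and 337 CPM with eIF3e siRNA. Every eIF3e siRNA library was below every control library. The change was -0.77 ± 0.11 (log2, SE, n = 3, edgeR adjusted p = 3.9e-05). BCL2L1 (chromosome 20, 31664452 to 31723963) encodes BCL-XL and, by alternative splicing, a short pro-apoptotic form, which gene counts do not separate. Its mRNA was at 381, 353 and 312 CPM in control and at 286, 299 and 287 CPM after eIF3e siRNA. The groups did not overlap, but the change of -0.26 ± 0.10 missed the threshold (edgeR adjusted p = 0.052, 95% interval -0.48 to -0.05). It passed with RLE scaling in place of TMM (-0.27, edgeR adjusted p = 0.047), and adjusted p ranged from 0.0095 to 0.50 over 14 alternatives.

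Of the effectors, only BAX passed the test. BAX (chromosome 19, 48954875 to 48961798), which moves from the cytosol into the outer membrane on activation, had mRNA at 24.0, 22.3 and 19.2 CPM in control and at 44.7, 38.1 and 49.0 CPM after eIF3e siRNA. The lowest eIF3e siRNA library lay well above the highest control library. The rise was 1.01 ± 0.14 (log2, n = 3, edgeR adjusted p = 3.3e-05), the largest change in size among the members in total RNA. BAK1 (chromosome 6, 33572552 to 33580276), which resides in the outer membrane, was at 14.5, 15.3 and 13.2 CPM in control and at 12.9, 10.4 and 9.07 CPM after eIF3e siRNA. The groups did not overlap, and the change of -0.42 ± 0.19 did not pass (edgeR adjusted p = 0.091, 95% interval -0.81 to -0.02). The pseudogenes BAK1P1 and BAK1P2 are named separately in the total RNA table.

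Of the 5 BH3-only members, 3 fell. PMAIP1 (chromosome 18, 59899996 to 59904305) encodes NOXA, which binds MCL1 and promotes its degradation. Its mRNA was at 62.4, 60.5 and 59.8 CPM in control and at 40.1, 40.1 and 39.9 CPM after eIF3e siRNA. The libraries of each group lay close together and the groups far apart. The change was -0.60 ± 0.10 (log2, n = 3, edgeR adjusted p = 0.00026). BCL2L11 (chromosome 2, 111120914 to 111168445) encodes BIM, a direct activator of the effectors. Its mRNA was at 36.2, 32.2 and 28.3 CPM in control and at 20.7, 21.3 and 25.0 CPM after eIF3e siRNA, again without overlap. The change was -0.53 ± 0.14 (edgeR adjusted p = 0.0076). BBC3 (chromosome 19, 47220824 to 47232860) encodes PUMA, which binds all the anti-apoptotic members. Its mRNA was at 16.3, 16.0 and 10.3 CPM in control and at 8.73, 7.76 and 10.1 CPM after eIF3e siRNA. The groups did not overlap, but control library 3 and eIF3e siRNA library 3 nearly met. The change was -0.68 ± 0.21 (edgeR adjusted p = 0.019), and the call was lost in 6 of 13 alternatives, among them leaving out control library 1 (edgeR adjusted p = 0.068) or 2 (0.10) or eIF3e siRNA library 1 (0.061) or 2 (0.073), and the DESeq2 Wald test (0.064).

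The remaining members did not pass the test. BAD (chromosome 11, 64269828 to 64284704), whose protein is kept inactive by phosphorylation and 14-3-3 binding, was at 20.3 to 28.7 CPM in control and 17.5 to 26.0 CPM after eIF3e siRNA. Its change was -0.05 ± 0.17 (edgeR adjusted p = 0.84, 95% interval -0.42 to 0.32), and GPR137, at 678 counts over the 6 libraries, overlaps it in RefSeq. BID (chromosome 22, 17734138 to 17774665), which caspase 8 cleaves to carry death receptor signals to mitochondria, was at 25.6 to 30.6 and 30.2 to 34.6 CPM. The groups overlapped, and the change was 0.22 ± 0.13 (edgeR adjusted p = 0.18). BCL2L13 (chromosome 22, 17628877 to 17730855), an outer membrane protein known as a mitophagy receptor, was at 61.0 to 66.8 and 56.1 to 66.3 CPM, with a change of -0.06 ± 0.11 (edgeR adjusted p = 0.69).

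Across the members, 7 of 10 had groups that did not overlap in total RNA, 6 lower and 1 higher, against 49.7% of all genes tested, 24.2% lower and 25.4% higher. The number of members called depended on the scaling. Scaling by library totals shifted the median of all genes by 0.16 (log2), and then 1 member rose and 2 fell. MCL1, PMAIP1 and BAX kept their calls, while BCL2L11 (-0.36, edgeR adjusted p = 0.073) and BBC3 (-0.52, edgeR adjusted p = 0.080) did not. BAD and BCL2L13 changed sign with that scaling.

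In ribosome footprints, both anti-apoptotic members and PMAIP1 fell, and BAX rose. Footprints are the stretches of mRNA covered by ribosomes, so their number reflects both the amount of mRNA and the ribosomes on it. MCL1, BCL2L1, BAX, BAD, BID, PMAIP1 and BCL2L13 passed the count filter, and BAK1, BCL2L11 and BBC3, with 65, 29 and 29 counts over the 6 libraries, did not and were not tested. Of the 7 tested, 1 rose and 3 fell. Over the 9228 genes tested, 18.5% were called, made up of 10% higher and 8.46% lower (edgeR quasi-likelihood test, adjusted p under 0.05).

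**Figure D2:**
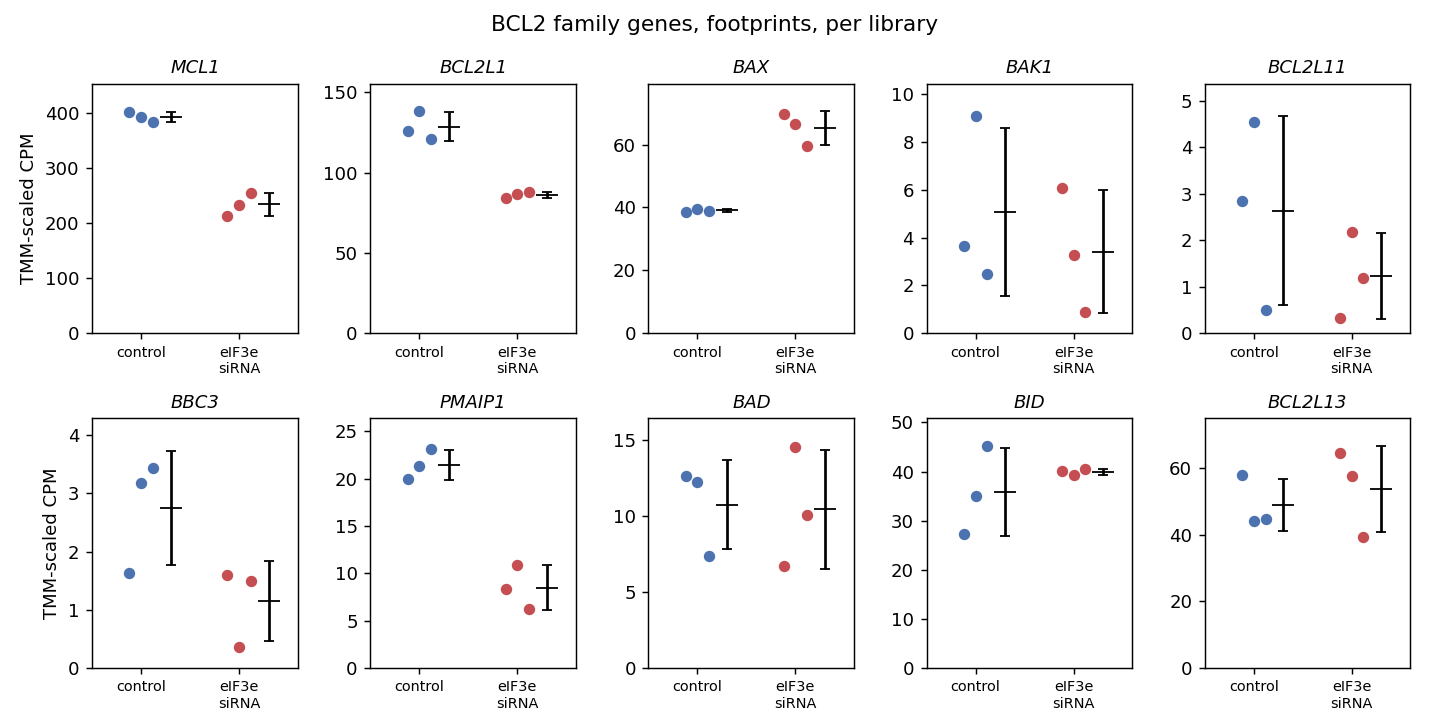
Level of each member in the 6 siRNA footprint libraries, in TMM-scaled CPM on axes that start at 0; points are libraries 1 to 3 from left to right, and the bar is the mean with its SD (n = 3). MCL1, BCL2L1 and PMAIP1 stand lower, and BAX higher, in every eIF3e siRNA library. BAK1, BCL2L11 and BBC3 stay under 10 CPM, and the BBC3 groups nearly meet, at 1.63 CPM in control library 1 and 1.59 CPM in eIF3e siRNA library 1.

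MCL1 footprints were at 402, 392 and 382 CPM in control and at 213, 232 and 255 CPM after eIF3e siRNA. The groups lay far apart, and the change was -0.75 ± 0.12 (log2, SE, n = 3, edgeR adjusted p = 3.8e-05). BCL2L1 footprints were at 126, 139 and 121 CPM in control and at 84.2, 86.6 and 87.7 CPM after eIF3e siRNA. The eIF3e siRNA libraries differed by only a few CPM and all lay below the control libraries. The change was -0.58 ± 0.16 (edgeR adjusted p = 0.0093).

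BAX footprints were at 38.7, 39.5 and 38.9 CPM in control and at 69.9, 66.6 and 59.5 CPM after eIF3e siRNA. Control libraries were almost level, and every eIF3e siRNA library was above them. The rise was 0.74 ± 0.21 (log2, n = 3, edgeR adjusted p = 0.012). PMAIP1 footprints were at 20.0, 21.4 and 23.1 CPM in control and at 8.29, 10.9 and 6.24 CPM after eIF3e siRNA. The fall of 1.34 ± 0.40 on the log2 scale, to 39.5% of control, was the largest among the members tested in footprints (edgeR adjusted p = 0.018). Without control library 2 1 member was called instead of 4: MCL1 stayed called, while BCL2L1 (edgeR adjusted p = 0.069), BAX (0.051) and PMAIP1 (0.068) did not, with changes of -0.53, 0.74 and -1.35. Without eIF3e siRNA library 3 the PMAIP1 call was lost as well (edgeR adjusted p = 0.084).

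BID, BCL2L13 and BAD footprints did not pass. BID was at 27.3 to 45.3 CPM in control and 39.3 to 40.4 CPM after eIF3e siRNA, a change of 0.16 ± 0.25 (edgeR adjusted p = 0.73, 95% interval -0.36 to 0.68). BCL2L13 was at 44.1 to 57.8 and 39.2 to 64.4 CPM, a change of 0.13 ± 0.23 (edgeR adjusted p = 0.76). BAD was at 7.38 to 12.6 and 6.70 to 14.6 CPM, and its 95% interval of -1.03 to 0.93 on the log2 scale leaves large changes undetectable at this depth. BAK1 was at 2.46 to 9.08 and 0.89 to 6.06 CPM and BCL2L11 at 0.49 to 4.54 and 0.32 to 2.18 CPM, with overlap in both. BBC3 was at 1.63, 3.18 and 3.45 CPM in control and 1.59, 0.36 and 1.49 CPM after eIF3e siRNA, which rests on 1 to 7 counts per library. As CPM of the unscaled library total the BBC3 groups overlapped, with control library 1 at 1.55 and eIF3e siRNA library 1 at 1.57. In footprints 4 of the 7 tested members had groups that did not overlap, 3 lower and 1 higher, against 33.7% of all genes tested, 16.5% lower and 17.1% higher.

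Footprints per mRNA, the change in footprints beyond that in mRNA, did not pass the test for any of the 7 members tested (edgeR, interaction of assay and siRNA in 12 libraries), nor with the DESeq2 Wald test or limma-voom, and 1 of the 7, PMAIP1, had an unadjusted p under 0.05. Over all 9055 genes tested, 0.309% were called, 0.144% as higher and 0.166% as lower. For MCL1 the ratio of footprint to mRNA CPM was 0.765, 0.697 and 0.800 in the control libraries and 0.774, 0.760 and 0.756 after eIF3e siRNA, with libraries of the same number divided, which the labels do not tie to 1 lysate. These values overlapped closely, and the fitted difference was 0.02 ± 0.15 (log2, edgeR adjusted p = 0.98, 95% interval -0.29 to 0.34). For BCL2L1 the ratio was 0.330, 0.393 and 0.388 in control and 0.294, 0.289 and 0.305 after eIF3e siRNA. All 3 eIF3e siRNA values were below the control values, and the difference of -0.32 ± 0.15 did not pass (edgeR adjusted p = 0.42, 95% interval -0.63 to 0.00).

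PMAIP1 had the largest fitted difference in footprints per mRNA among the members. Its ratio was 0.320, 0.353 and 0.387 in control and 0.207, 0.272 and 0.157 after eIF3e siRNA. The groups did not overlap, and the difference was -0.75 ± 0.29 (log2, unadjusted p = 0.017, edgeR adjusted p = 0.28, 95% interval -1.34 to -0.15). For BAX the ratio was 1.62, 1.77 and 2.03 in control and 1.56, 1.75 and 1.21 after eIF3e siRNA, which overlapped (-0.27 ± 0.24, edgeR adjusted p = 0.70). BID (-0.06 ± 0.27), BCL2L13 (0.19 ± 0.24) and BAD (-0.01 ± 0.42) had adjusted p from 0.82 to 1 in edgeR. The groups did not overlap in 2 of the 7, both lower, against 18.6% of all genes tested in either direction and 8.48% lower.

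**Figure D3:**
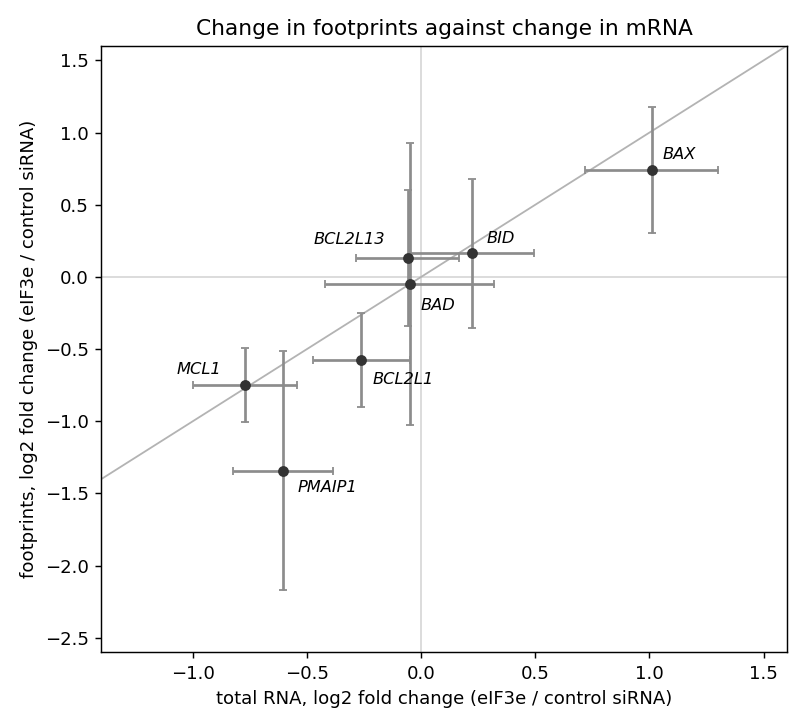
Log2 fold change after eIF3e siRNA in total RNA (horizontal) and footprints (vertical) for the 7 members tested in both, with 95% intervals (n = 3 per group); the grey diagonal marks equal change. MCL1 (-0.77 and -0.75) lies on the diagonal, BAX lies in the upper right at 1.01 and 0.74, and PMAIP1 (-0.60 and -1.34) and BCL2L1 (-0.26 and -0.58) lie below it with vertical intervals that reach it.

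Because scaling factors cancel in a ratio of counts within a library, the anti-apoptotic members were also set against the effectors directly. The ratio to BAX restates the opposite calls above without scaling and is no independent result. Ratios of different genes carry their unequal lengths, so only the change between groups can be read. In total RNA the MCL1 to BAX ratio was 21.9, 25.2 and 24.9 in control and 6.16, 7.99 and 6.88 after eIF3e siRNA. The BCL2L1 to BAX ratio was 15.9, 15.8 and 16.3 in control and 6.40, 7.84 and 5.87 after eIF3e siRNA. Both ratios to BAX were lower in every eIF3e siRNA library than in any control library. Against BAK1, a denominator added after the data were seen, this did not hold. The MCL1 to BAK1 ratio was 36.3, 36.8 and 36.1 in control and 21.4, 29.3 and 37.2 after eIF3e siRNA, which overlap. The BCL2L1 to BAK1 ratio was 26.3, 23.0 and 23.6 in control and 22.2, 28.7 and 31.7 after eIF3e siRNA, which overlap as well.

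In footprints the MCL1 to BAX ratio was 10.4, 9.93 and 9.82 in control and 3.05, 3.48 and 4.29 after eIF3e siRNA. The BCL2L1 to BAX ratio was 3.25, 3.51 and 3.11 in control and 1.21, 1.30 and 1.48 after eIF3e siRNA. In footprints BAK1, with 3 to 20 counts per library, gave ratios that also overlapped, with MCL1 to BAK1 ratios from 43.2 to 155 under control siRNA and from 35.2 to 286 under eIF3e siRNA. The MCL1 to PMAIP1 ratio was 8.57 ± 0.67 in control and 7.63 ± 0.80 after eIF3e siRNA in total RNA (SD, n = 3), which overlap. In footprints it was higher after eIF3e siRNA, at 21.2 to 40.8 against 16.5 to 20.1 in control, and these did not overlap (29.2 ± 10.3 and 18.3 ± 1.8). With 3 libraries against 3, an exact permutation test cannot go below 0.10, and none was run on these ratios.

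**Figure D4:**
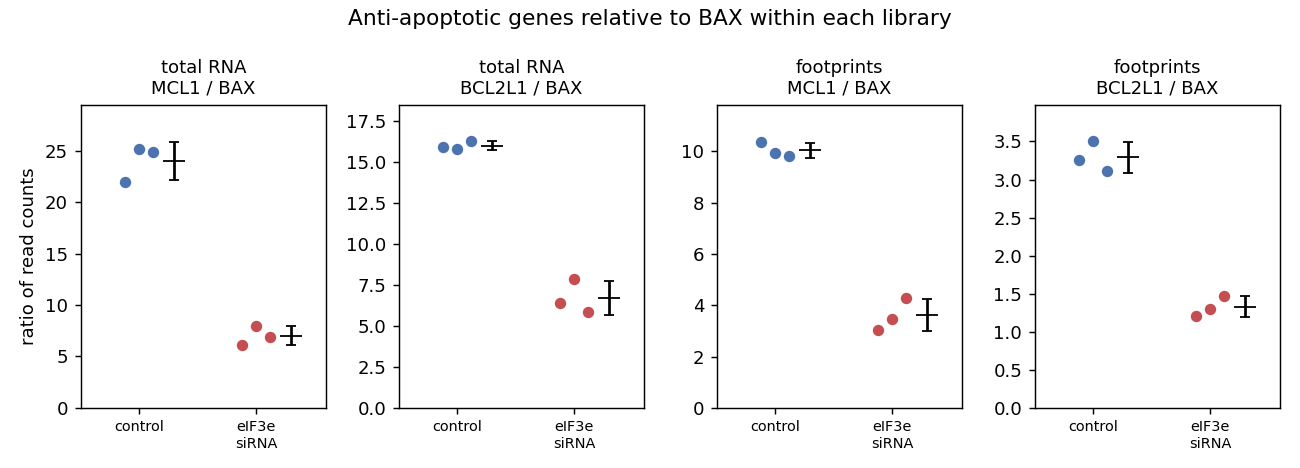
Read counts of MCL1 and of BCL2L1 divided by those of BAX in each library, for total RNA and footprints, on axes that start at 0; points are libraries 1 to 3 from left to right, and the bar is the mean with its SD (n = 3). The eIF3e siRNA libraries lie below the control libraries in all 4 panels, for MCL1 in total RNA at 6.16 to 7.99 against 21.9 to 25.2.

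The rest of the pathway was read from 6 lists of genes. Their median log2 changes in total RNA were 0.07 for other BCL2 family members, -0.01 for apoptosome and caspase genes, -0.12 for inhibitors of apoptosis and their antagonists, 0.21 for the death receptor arm, -0.21 for outer membrane partners and -0.33 for regulators of MCL1 and BH3-only proteins, beside 0.02 for all genes. In footprints the medians were, in the same order, -0.45, -0.04, 0.16, 0.35, -0.26 and -0.27, beside -0.01 for all genes. The counts below stand beside 18.8% of all genes tested that rose and 18.7% that fell in total RNA, and 10% that rose and 8.46% that fell in footprints. With so few genes a list, nothing particular to a list is read from them. Of the other BCL2 family members, 9 of 13 were tested in total RNA, and 0 rose and 1 fell. The one that fell was BNIP3L, a mitophagy receptor (-0.82 ± 0.17, edgeR adjusted p = 0.0011). In footprints 5 were tested and edgeR called none, with 1 at an unadjusted p under 0.05, none called by DESeq2 and 1 by limma-voom. BIK, a BH3-only protein of the endoplasmic reticulum, was at 0.09 ± 0.26 and BNIP3L at -0.97 ± 0.40 (edgeR adjusted p = 0.87 and 0.097). BCL2 itself, chosen after its values were seen, had 26 total RNA and 6 footprint counts over the 6 libraries of each assay and was not tested.

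Downstream of the mitochondria, 3 of 12 tested apoptosome and caspase genes rose in total RNA and 1 fell. AIFM1, a flavoprotein of the intermembrane space, rose by 1.07 ± 0.13 (log2, edgeR adjusted p = 8.2e-06), and CASP8, the initiator caspase of death receptors, by 0.86 ± 0.21 (edgeR adjusted p = 0.0037). The other one that rose, named after its values were seen, was DFFA, the inhibitor of the caspase-activated nuclease (0.46 ± 0.15, edgeR adjusted p = 0.021). In footprints 1 of 12 rose, AIFM1 (1.05 ± 0.16, edgeR adjusted p = 1.5e-05), and none fell (2 at an unadjusted p under 0.05, and none lower by DESeq2 or limma-voom).

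Among inhibitors of apoptosis, which bind and restrain caspases or act in death receptor signaling, and their antagonists, 3 of the 7 tested genes fell in total RNA and 1 rose. BIRC2 was at -0.84 ± 0.13 (edgeR adjusted p = 9.0e-05), XIAP at -0.61 ± 0.13 (edgeR adjusted p = 0.0019) and BIRC3 at -0.46 ± 0.11 (edgeR adjusted p = 0.0025). The one that rose, named after its values were seen, was HTRA2, an antagonist of these inhibitors (0.64 ± 0.15, edgeR adjusted p = 0.0033). In footprints 2 of 7 fell and 0 rose, although the list's median was above 0, with BIRC2 at -1.42 ± 0.37 (edgeR adjusted p = 0.0064) and BIRC3 at -1.45 ± 0.48 (edgeR adjusted p = 0.034). The BIRC3 footprint call was lost without control library 1 (edgeR adjusted p = 0.059) or 2 (0.31), or eIF3e siRNA library 1 (0.14) or 2 (0.051), and limma-voom called 1 gene of this list higher in footprints.

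In the death receptor arm, 3 of 10 tested genes rose in total RNA and 1 fell. TNFRSF10A, a receptor of the ligand TRAIL, rose by 0.59 ± 0.10 (edgeR adjusted p = 0.00018), and TNFSF10, which encodes TRAIL, by 0.58 ± 0.12 (edgeR adjusted p = 0.0013). TNFRSF10D, a decoy receptor for the same ligand, was at -0.67 ± 0.11 in total RNA (edgeR adjusted p = 0.00022). Its footprints did not follow, at -0.0029 ± 0.15 (edgeR adjusted p = 0.99). Its footprints per mRNA were at 0.67 ± 0.19 and were not called (edgeR unadjusted p = 0.0018, adjusted p = 0.14). In footprints 3 of 9 rose and 0 fell, with TNFSF10 at 0.64 ± 0.13 (edgeR adjusted p = 0.00068), TNFRSF10A at 0.59 ± 0.14 (edgeR adjusted p = 0.0018) and the TNF receptor TNFRSF1A at 0.48 ± 0.16 (edgeR adjusted p = 0.028). The TNFRSF1A call was lost in 6 of 13 alternatives, among them leaving out any 1 control library or eIF3e siRNA library 2 or 3 (edgeR adjusted p up to 0.14).

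Of 8 outer membrane partners, 2 rose and 3 fell in total RNA, and 1 rose and 1 fell in footprints. MTCH2, a receptor for truncated BID at the outer membrane, rose by 0.55 ± 0.13 (edgeR adjusted p = 0.0040) in total RNA and by 0.93 ± 0.24 (0.0059) in footprints. VDAC2, a channel protein that binds BAK1 and BAX, was at -0.65 ± 0.16 (edgeR adjusted p = 0.0051) and -0.96 ± 0.22 (0.0019). MFN2, a mitochondrial fusion protein, rose in total RNA by 0.39 ± 0.10 (edgeR adjusted p = 0.0077). The other 2 that fell in total RNA, named after their values were seen, were the channel protein VDAC1 (-0.69 ± 0.19, edgeR adjusted p = 0.015) and the import receptor TOMM20 (-0.34 ± 0.12, edgeR adjusted p = 0.034). Without eIF3e siRNA library 2 the MTCH2 footprint call was lost (edgeR adjusted p = 0.055).

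Of the regulators of MCL1 turnover and of BH3-only proteins, 0 of 16 tested rose and 8 fell in total RNA, and 0 of 14 rose and 4 fell in footprints. With total-count scaling 3 fell in total RNA, and the genes that rose and fell in the other lists, in the order above, numbered 1 and 1, 3 and 0, 2 and 3, 4 and 1, and 2 and 2, with medians above 0 for apoptosome and caspase genes (0.15) and for inhibitors of apoptosis and their antagonists (0.03). The 14-3-3 proteins YWHAQ and YWHAZ, which hold phosphorylated BAD, were at -0.82 ± 0.11 and -0.91 ± 0.15 in total RNA (edgeR adjusted p = 1.8e-05 and 0.00065) and at -0.70 ± 0.13 and -0.96 ± 0.18 in footprints (edgeR adjusted p = 0.00019 and 0.00013). The other 14-3-3 genes of the list are named after their values were seen. YWHAE was called lower in total RNA only (-0.48 ± 0.13, edgeR adjusted p = 0.0074), and YWHAB, YWHAG and YWHAH were called in neither assay. BAG3, a co-chaperone, was at -0.46 ± 0.10 in total RNA (edgeR adjusted p = 0.0018, and 0.061 with total-count scaling), and BAG6, a chaperone of tail-anchored proteins, at -0.73 ± 0.13 in footprints (edgeR adjusted p = 0.00013). No gene of the 6 lists was called in footprints per mRNA by the main edgeR fit, with 0 to 2 genes of a list at an unadjusted p under 0.05. None was called by limma-voom. The DESeq2 Wald test called 1 gene of the death receptor arm. The edgeR fit with treatment and number as a replicate block also called 1 gene of that arm. Outside these lists, the epithelial marker SFN, named after its values were seen, was called lower in footprints per mRNA (-0.81 ± 0.15, edgeR adjusted p = 0.028).

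In the single libraries, which have no replicates, the members' levels on ribosomes bound by eIF3B and by eIF3E can be described beside the total lysate. The intervals below are exact at 95% and cover counting error only, and each ratio compares 1 library with another, not conditions. MCL1 was at 403 CPM (368 to 440) in the total lysate, 508 CPM (473 to 546) on eIF3B-bound and 491 CPM (458 to 526) on eIF3E-bound ribosomes. Its ratio to the total was 0.34 (log2, 0.17 to 0.50) for eIF3B and 0.29 (0.12 to 0.45) for eIF3E. BAX was at 122 CPM (103 to 143), 79.6 CPM (65.8 to 95.5) and 115 CPM (99.4 to 133), with ratios of -0.61 (-0.97 to -0.25) and -0.08 (-0.40 to 0.24).

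BCL2L1 was at 90.6, 71.4 and 121 CPM in the total, eIF3B-bound and eIF3E-bound libraries, with log2 ratios of -0.34 (-0.74 to 0.05) and 0.42 (0.08 to 0.77). BID was at 50.6, 70.0 and 89.2 CPM, with ratios of 0.47 (-0.0021 to 0.95) and 0.82 (0.38 to 1.27). MCL1, BAX, BCL2L1 and BID reached 100 counts in at least 1 of the 3 libraries. Of these 4, MCL1 had an interval above 0 and BAX below 0 for eIF3B, where 31.2% of the 3575 genes at this depth were above and 31.7% below. For eIF3E, MCL1, BCL2L1 and BID were above 0, as were 26.3% of genes, and none was below, as were 28.7%.

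The other members had fewer counts. BAD had 32, 56 and 96 counts and a ratio of 1.15 (log2, 0.56 to 1.77) for eIF3E, and BAK1 had 18, 4 and 49 counts, with ratios of -2.42 (-4.44 to -0.82) for eIF3B and 1.01 (0.20 to 1.87) for eIF3E. BCL2L13 had 65, 43 and 65 counts and ratios of -0.85 (-1.44 to -0.27) and -0.44 (-0.96 to 0.08). BBC3 had 8, 12 and 21 counts, PMAIP1 5, 0 and 7, and BCL2L11 0, 0 and 5, too few to set the libraries apart except that the upper limit for PMAIP1 on eIF3B-bound ribosomes was -0.12.

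**Figure D5:**
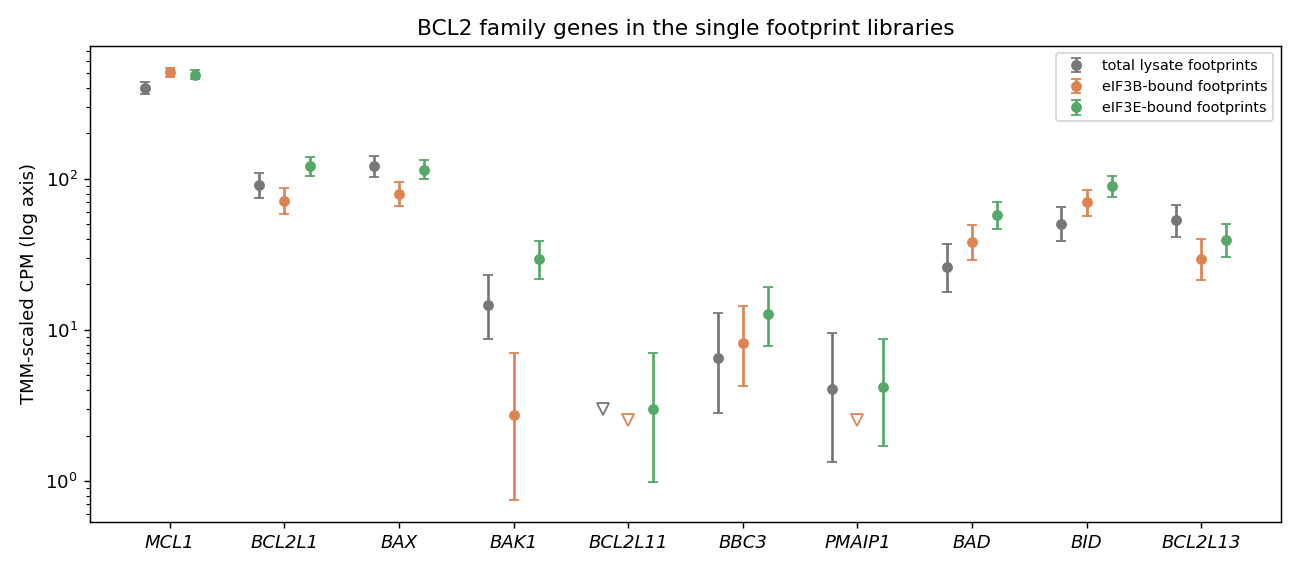
Level of each member in the single footprint libraries, in TMM-scaled CPM on a log axis, with exact 95% Poisson intervals of the count; open triangles mark the upper limit where the count was 0. MCL1 lies at 403 to 508 CPM in all 3 libraries, while BAK1 spans 2.74 CPM on eIF3B-bound to 29.5 CPM on eIF3E-bound ribosomes.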

How the data were processed

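Total RNA and footprints of MCF-10A cells were analysed from the deposited raw read counts per gene symbol, with 15 library columns mapped to samples by title. The tools named in the submitters' processing notes are HTSeq, STAR 2.5, Bowtie 1.1.2 and cutadapt 1.18, and the builds are GRCh38 and hg38. Which step used which, the gene models and whether counting used strand is not known from the labels, so reads of a gene and an overlapping one cannot be told apart. Loci and upstream sequences are from RefSeq (GRCh38.p14).

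Counts of all genes entered the robust quasi-likelihood F test of edgeR 4.0.16 (R 4.3.3), two-sided, after filterByExpr at minimum 10 and TMM scaling of each assay, with Benjamini-Hochberg adjustment over the genes tested and a threshold of 0.05. The 6 libraries of each assay had a fit of their own, and footprints per mRNA as the interaction of assay and siRNA over 12. Single libraries were scaled by TMM on 3575 genes with at least 100 counts in 1 of 3 libraries. The procedure was tested on simulated data. Alternatives were RLE scaling by edgeR in place of TMM, total-count scaling, no filter and a minimum count of 50. Others were the DESeq2 1.42.0 Wald test with TMM-scaled library sizes, and limma-voom (limma 3.58.1) with sample weights. Further ones were a replicate block, total RNA of the footprint table's symbols only, and leaving out each replicate.

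The members and lists were chosen with earlier results of these data known. The naming rule takes EIF3E, all members and, per companion list and assay, up to 3 called genes with the smallest adjusted p, or the 2 with most counts where none was called. MARCHF5 was not found by symbol in either table. Some genes that the lists count are not reported here by name. The biological coefficient of variation was 0.155 in total RNA and 0.245 in footprints.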

Additional observations from a re-analysis of the deposited data

How the results depend on the processing

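MCL1 in both assays, and BAX and PMAIP1 in total RNA, kept direction and call under every alternative run, at -0.85 to -0.61 and -0.82 to -0.69 for MCL1, 0.91 to 1.17 for BAX and -0.64 to -0.44 for PMAIP1 (log2). With total-count scaling 3 members were called in total RNA, against 5. Leaving out 1 library gave 4 to 6 members called in total RNA and 1 to 4 in footprints, against 4. Genes called in footprints per mRNA numbered 28, against 92 with total-count scaling (3.26% of them higher, against 46.4%), 46 at a minimum count of 50, 153 with the DESeq2 Wald test, 166 with the treatment and number as a replicate block, and 0 to 22 without 1 pair of libraries. No member was called in footprints per mRNA in any of these. In total RNA, total-count scaling raised the share of higher calls from 50.1 to 70.4%.

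Sign changes were of members that were not called. With total-count scaling BAD (0.12) and BCL2L13 (0.10) turned in total RNA, and MCL1 (-0.19) and BCL2L13 (-0.014) in footprints per mRNA. In footprints per mRNA BAD turned with no filter (0.0064), MCL1 at a minimum count of 50 (-0.014) and BID with limma-voom (0.0077). With 1 library or pair left out, BAD lay between -0.17 and 0.12 in total RNA, -0.36 and 0.19 in footprints and -0.23 and 0.32 in footprints per mRNA. BID lay between -0.0078 and 0.35 in footprints and -0.20 and 0.21 in footprints per mRNA, BCL2L13 between -0.023 and 0.32 in footprints, MCL1 between -0.035 and 0.071 in footprints per mRNA, and BIK in footprints between -0.15 and 0.35. The causes were not tested.

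Between siRNAs, deviations of libraries of the same number had r from -0.029 to 0.032 in total RNA and from -0.010 to 0.0026 in footprints. Between assays all 6 same-number r were above 0. With eIF3e siRNA they were 0.036, 0.042 and 0.042, and r between different numbers ran from -0.039 to 0.0019. With control siRNA they were 0.13, 0.0020 and 0.12, and r between different numbers ran from -0.13 to 0.029. Libraries of the same number may therefore share samples between assays, except that control number 2 did not show it. The main fit did not pair libraries of the same number, and pairing was run only as an alternative. With the number as a replicate block 4606 genes were called in total RNA and 1676 in footprints, and 5 and 4 members, as without it. BAK1, BCL2L11 and BBC3 have too few footprint counts for any statement on their translation.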

Other observations

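Levels of 8 of the 10 members in the total lysate footprint library lay outside those of the 3 control siRNA footprint libraries, as did those of 5 of the 7 members tested in siRNA footprints and of 82.4% of all 9228 genes tested there, so the members do not stand apart from the other genes in this. As CPM of the unscaled library total, BAX was at 122 against 36.9 to 41.8, BAD at 26.1 against 7.94 to 12.6, BAK1 at 14.7 against 2.65 to 9.35, BID at 50.6 against 26.0 to 48.7 and BBC3 at 6.53 against 1.55 to 3.70. PMAIP1 was lower, at 4.08 against 19.0 to 24.9, as were BCL2L1, at 90.6 against 120 to 143, and BCL2L11, at 0 against 0.53 to 4.68. MCL1, at 403 against 382 to 411, and BCL2L13, at 53.1 against 45.4 to 55.1, lay within the control range. The total lysate is 1 library, no siRNA is named for its cells, and siRNA, culture and preparation cannot be told apart.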
